A study of Mus musculus with 12 samples.

Results

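The comparison of cocaine with saline rests on 6 of the 12 small RNA libraries of the series, 3 from mice conditioned with cocaine (CS, replicates 8, 9 and 10) and 3 from mice given saline throughout (SS, replicates 12, 13 and 14). All mice were adult males of the C57BL/6 strain. In conditioned place preference, an animal learns to associate one side of a box with a drug. CS mice were paired with cocaine at 20 mg/kg, injected intraperitoneally, over 8 days of 30-min sessions, and SS mice received saline in its place. Neither group received l-methionine, which was given in the remaining groups, with saline (MS) or with cocaine (MC). Prefrontal cortex (PFC) was taken 2 h after the preference test on day 10, and each library was made from the pooled RNA of 2 animals, so that variation between single animals is not seen. RNA of 18 to 30 nt was sequenced. Each file lists a small RNA, its class and its number of reads. The 6 libraries listed 2644 small RNAs with a count, of 3134 in all 12 libraries, and 1643 to 1812 in any 1 of the 6.

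Mature miRNAs are short RNAs cut from hairpin precursors. They guide Argonaute proteins to messenger RNAs, mainly through pairing of the seed, bases 2 to 8, and lower the output of their targets. The PFC takes part in the control of drug seeking, and miRNAs of neurons, among them miR-124, miR-132 and miR-212, have been studied in animals given cocaine. The other classes sequenced here are mostly fragments of longer RNAs, such as small nucleolar RNAs (snoRNAs), which guide chemical modification of ribosomal RNA, spliceosomal RNAs (snRNAs), ribosomal and transfer RNAs, and fragments of exons, introns and repeats.

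The depth, in units of 1000000 counts, was 8.23 in SS replicate 12, 10.04 in SS 13 and 11.08 in SS 14, against 8.47 in CS 8, 8.71 in CS 9 and 8.18 in CS 10. The totals overlapped between the groups (exact two-sided permutation test, p = 0.3). A test of 3 against 3 libraries cannot give a p below 0.1. A count of 3, taken as the floor, was worth 0.271 to 0.367 CPM in the 6 libraries, where CPM is the count over the library total, times 1000000.

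The libraries did not fall together by treatment. On the profiles of 125 miRNA precursor families, the 12 libraries formed 3 sets. SS 12 stood with CS 8 and CS 9 (set A), SS 13 and SS 14 stood with MS 3, MS 4, MS 23 and MC 20 (set B), and CS 10 stood with MC 16 and MC 17 (set C). Set B thus held 2 of the 3 saline libraries and no CS library, and the labels give no batch that would name these sets. The precursor family mir-1180, absent from the mouse miRNA names in these files, had 156 counts in SS 12, 129 in CS 8 and 146 in CS 9, and at most 1 count in any of the 9 other libraries. Precursor families named for plant miRNAs held 45704 counts in CS 10, or 0.559% of that library, against 726 in SS 12 and 29 to 46 in the other 4 libraries. The family mir-1180 and most plant-named families were among those that formed the sets, so they are no separate support for them. The snoRNA family SNORA73, not used to form the sets, was higher in every library of set B than in any library of sets A and C. It was picked for its small unadjusted p in CS against SS, which favors a gap between SS 13 or SS 14 and the CS libraries. It is thus no independent support for the sets, and how many other families show this order was not counted. Treatment and library set are partly confounded over the 6 libraries, since only set A holds both CS and SS. The within-set value, CS 8 and CS 9 beside SS 12, rests on 3 libraries and carries no test, and a fit with the set as a covariate was run for miRNAs and piRNAs.

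**Figure D1:**
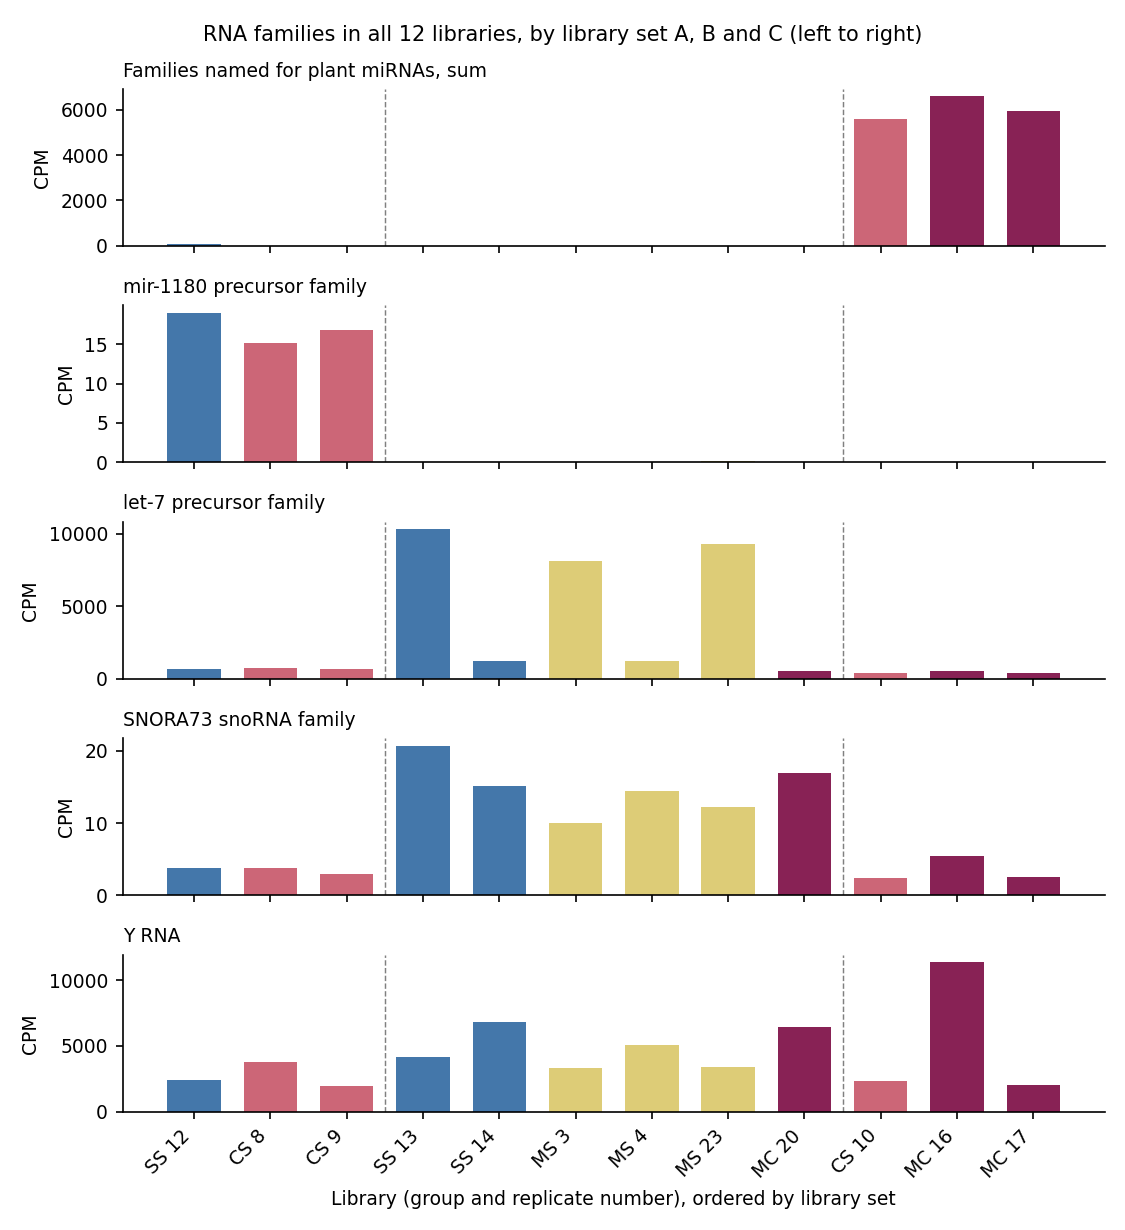
Bars show the CPM of the plant-named families (summed), the mir-1180, let-7 and SNORA73 families and Y RNA in each of the 12 libraries (blue SS, rose CS, yellow MS, wine MC), with dashed lines between sets A, B and C. Plant-named families reached 5586 CPM in CS 10 and at most 88.2 CPM in any other CS or SS library, and SNORA73 reached 15.2 and 20.7 CPM in SS 14 and SS 13 but not over 3.78 CPM in the other 4.

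The miRNAs that lead the comparison are shown with their seeds in capitals, written 5′ to 3′. The sequences and positions are from RefSeq on GRCm38.p6, and the notes on hosts from GENCODE M21. Of 1374 mature miRNAs listed in the files, 1160 matched that table by name. miR-200c-3p and miR-141-3p lie close together on the minus strand of chromosome 6, and their seeds differ at 1 base. miR-183-5p and miR-182-5p form another cluster on the same strand of chromosome 6. These are shown, with miR-205-5p and miR-203-3p of stratified epithelium, because they or their neighbors had the smallest unadjusted p among miRNAs higher in CS.
miR-200c-3p: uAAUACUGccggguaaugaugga
miR-141-3p: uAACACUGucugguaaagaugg
miR-183-5p: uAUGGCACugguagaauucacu
miR-182-5p: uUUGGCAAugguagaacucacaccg
miR-205-5p: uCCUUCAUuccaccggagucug
miR-203-3p: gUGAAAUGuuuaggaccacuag

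miR-200c-3p is encoded at chr6:124718324-124718346 and miR-141-3p at chr6:124717917-124717938, both within an intron of the antisense RNA gene Gm15884 on the same strand. miR-183-5p at chr6:30169711-30169732 and miR-182-5p at chr6:30165962-30165986 have no annotated host on their strand. miR-205-5p is at chr1:193507503-193507524 in an exon of the long noncoding RNA 4631405K08Rik, and miR-203-3p at chr12:112130927-112130948 with no annotated host. Seed AAUACUG was shared by 3 of the miRNAs tested, miR-200b-3p, miR-200c-3p and miR-429-3p, and seed AACACUG by miR-200a-3p and miR-141-3p.

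The next 5 sequences belong to miRNAs among the smallest unadjusted p on the lower side. miR-7a-5p and miR-7b-5p have the same seed, and miR-24-3p was the most abundant miRNA with a change over 1 on the log2 scale. The last 3 sequences belong to miRNAs that the study named in its account of piRNA targets.
miR-7a-5p: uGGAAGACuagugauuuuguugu
miR-7b-5p: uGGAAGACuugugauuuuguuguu
miR-24-3p: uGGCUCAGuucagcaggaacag
miR-191-5p: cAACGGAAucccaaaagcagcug
miR-193b-3p: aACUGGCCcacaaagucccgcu
miR-224-5p: uAAGUCACuagugguuccguu
miR-340-3p: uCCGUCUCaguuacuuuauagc
miR-330-5p: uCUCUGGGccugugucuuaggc

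miR-24-3p comes from 2 genes, Mir24-2 at chr8:84208875-84208896 with no annotated host and Mir24-1 at chr13:63301251-63301272 in an exon of 2010111I01Rik, and its counts cannot be divided between them. The same holds for miR-7a-5p, from an intron of Hnrnpk at chr13:58392841-58392863 and from chr7:78888295-78888317. miR-224-5p lies in an intron of Gabre at chrX:72261085-72261105, miR-340-3p in an intron of Rnf130 at chr11:50069762-50069783 and miR-330-5p in an exon of Eml2 at chr7:19181486-19181507.

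Mature miRNAs made up most of every library. Their share was 63.4%, 67.9% and 65.5% of all counts in SS 12, 13 and 14, and 62.8%, 65.8% and 60.8% in CS 8, 9 and 10. The groups overlapped, with means of 65.6 ± 2.24% in SS and 63.2 ± 2.53% in CS (exact two-sided permutation test, p = 0.3, adjusted p = 0.78 over 13 classes). Reads assigned to precursor families held 11.7 ± 0.585% in SS and 11.5 ± 0.381% in CS, and fragments of exons 9.28 ± 1.51% and 10.1 ± 0.382%. The counting error of any share was at most 0.0335 percentage points on each side (95% Wilson interval, counting error only). That largest value was for mature miRNAs, far under their spread between libraries. In small classes it was nearer the spread. For snRNAs it was 0.000552 to 0.000698 points in SS, against a standard deviation of 0.00101.

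Repeat-derived reads were the 1 class whose groups did not overlap. They held 4.46% of counts in SS 12, 3.56% in SS 13 and 3.19% in SS 14, against 5.26% in CS 8, 5.71% in CS 9 and 7.06% in CS 10. Every cocaine library was above every saline library, and the order also held within set A, where SS 12 was the highest of the saline libraries and still under CS 8 and CS 9. The means were 3.74 ± 0.652% in SS and 6.01 ± 0.937% in CS, a ratio of 1.61, with p = 0.1 in the exact permutation test, the smallest this design can give, and an adjusted p of 0.78. The MS and MC libraries ranged from 3.28% to 5.94%, across the gap between SS and CS. The files give repeats as 1 summed entry per library, so that no repeat family can be named.

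The remaining classes overlapped between the groups. Intron fragments held 4.47 ± 0.247% in SS and 4.5 ± 0.414% in CS, and intergenic reads 4.06 ± 1.07% and 3.53 ± 0.936%. piRNAs held 0.352 ± 0.0499% and 0.427 ± 0.16%. Ribosomal RNA fragments ran from 0.0532% in SS 13 to 0.136% in SS 12 and from 0.112% in CS 9 to 0.232% in CS 10, with CS 10 the highest of the 6. The tRNA share was highest in SS 12 at 0.112% and CS 8 at 0.124%, and 0.0418% to 0.0607% in the other 4 libraries, a spread that did not follow treatment. snoRNAs held 0.027% to 0.052% in CS and 0.0301% to 0.0363% in SS. Predicted siRNAs had counts in CS 10 alone among the 6, with 62 reads, where a count of 0 in the others allows up to the floor of 3.

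**Figure D2:**
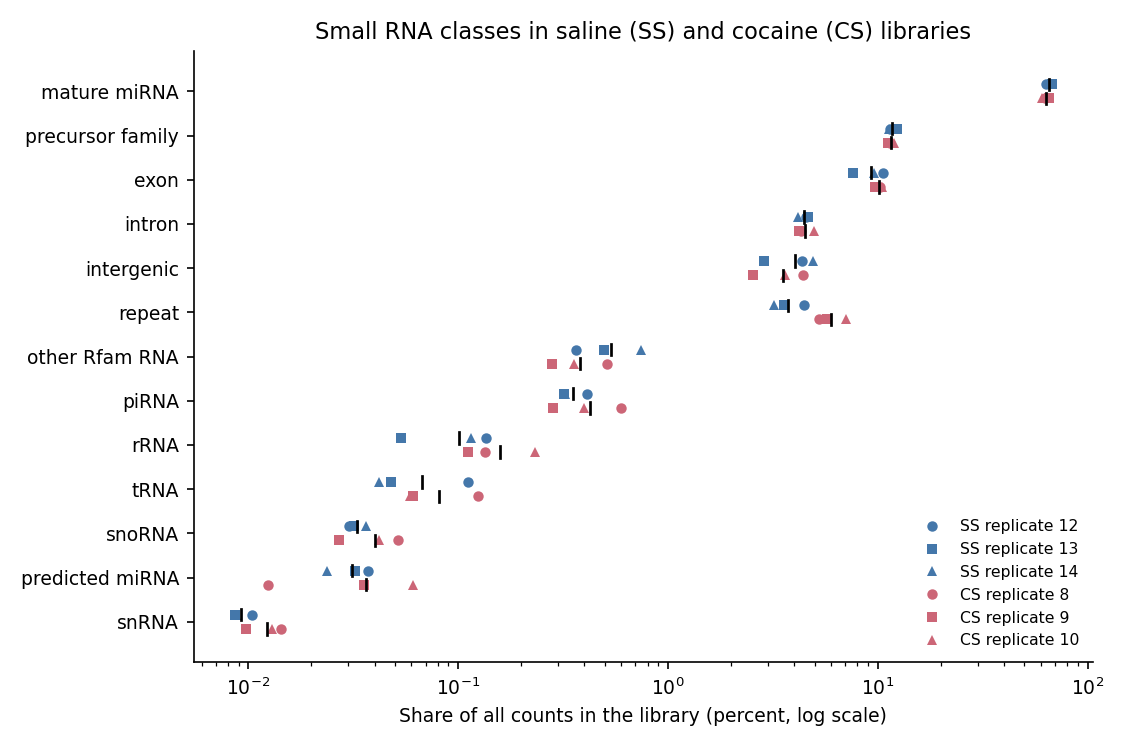
Points give the share of each RNA class in percent of a library's counts (log axis) for the 3 SS libraries in blue and the 3 CS libraries in rose, with black ticks at the group means. In the row of repeats the CS libraries, from 5.26% to 7.06%, lie to the right of the SS libraries, from 3.19% to 4.46%, and in every other row the groups overlap.

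The number of miRNAs with at least 1 count was 964, 981 and 1017 in the SS libraries and 1022, 973 and 990 in the CS libraries. The means were 987.3 ± 27.1 and 995.0 ± 24.9 (exact permutation test, p = 0.7). The 10 most abundant miRNAs of a library held 61.1%, 62.6% and 54.9% of its miRNA counts in SS 12, 13 and 14, and 47.6%, 58.9% and 61.3% in CS 8, 9 and 10. CS 8 was the lowest, and it was also the library with the least miR-124-3p. Without miR-124-3p these shares lay between 47.1% and 52.0% in all 6 libraries.

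Of 1297 mature and predicted miRNAs listed in the 6 libraries, 780 (746 mature, 34 predicted) passed the filter of at least 5 counts in at least 3 of the 12 libraries. None was called between CS and SS, that is 0.0% of those tested. A call needed an adjusted p of 0.05 or less together with a log2 fold change of 1 or more in either direction (edgeR quasi-likelihood F-test with Benjamini-Hochberg adjustment). The adjusted p was at least 0.994 for every miRNA. At an unadjusted p under 0.05 there were 22 miRNAs, 2.82% of those tested, with 9 higher in CS (1.15%) and 13 lower (1.67%). DESeq2 also called none, with 29 miRNAs at an unadjusted p under 0.05 and a smallest adjusted p of 0.256. With the library set as a covariate edgeR called none, with 12 at an unadjusted p under 0.05. The median standard error of a log2 fold change was 0.485, so that changes of the size most miRNAs showed, 0.285 in the median, were well within the error.

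How far the bulk of miRNAs lay above 0 depended on the scaling. With TMM factors the median log2 fold change of all miRNAs was 0.03, and 52.8% were higher in CS. With library totals alone it was 0.31, and 75.3% were higher. The CPM of 103 miRNAs (13.2%) did not overlap between the groups, 96 of them higher and 7 lower in CS (12.3% and 0.897%), but with TMM scaling the number was 81 (10.4%), 39 higher and 42 lower (5.0% and 5.38%). Fold changes below are TMM-scaled, and values in CPM are not.

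**Figure D3:**
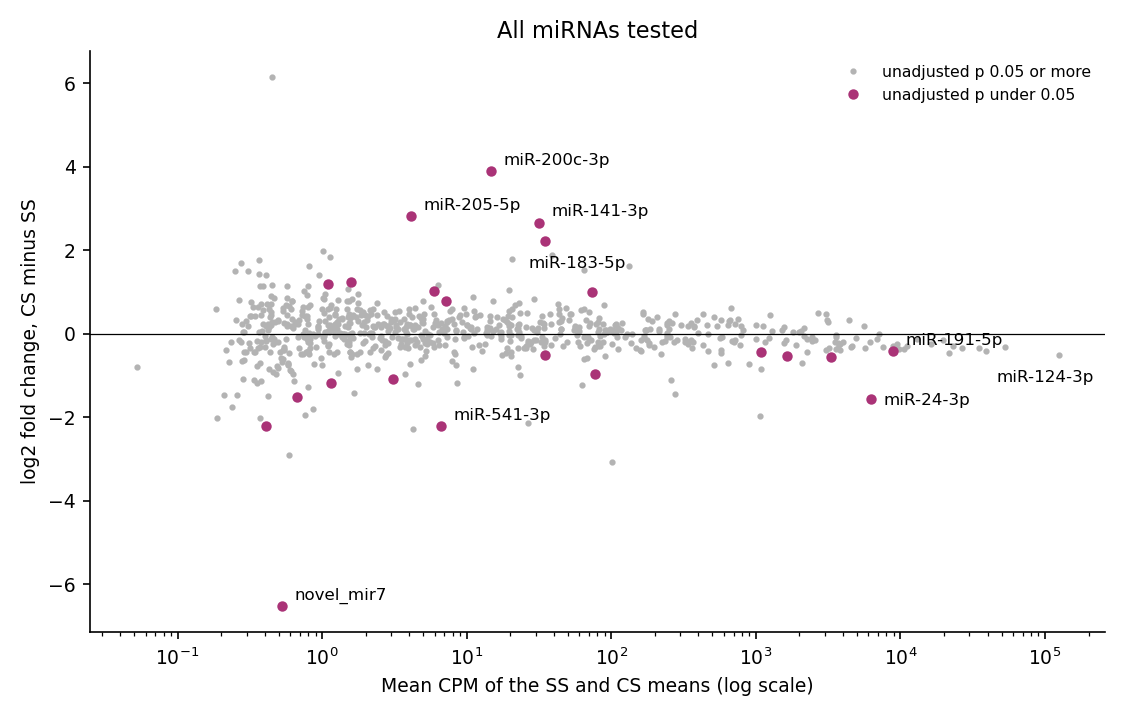
Each point is 1 of the 780 miRNAs tested, with the mean of the SS and CS mean CPM on the log x axis and the TMM-scaled log2 fold change (CS minus SS) on the y axis; the 22 at an unadjusted p under 0.05 are purple. The purple points highest above 0 are miR-200c-3p (3.90), miR-205-5p (2.82), miR-141-3p (2.66) and miR-183-5p (2.23), and miR-24-3p (-1.57) is the one furthest below 0 among the purple points to the right of 100 CPM.

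The most abundant miRNA was miR-124-3p, the miRNA most typical of neurons. It had 165273, 176336 and 70274 CPM in SS 12, 13 and 14, and 30002, 148929 and 153965 CPM in CS 8, 9 and 10. CS 8 was the lowest and SS 14 the next, and the groups overlapped (log2 fold change -0.50, SE 0.742). Without CS 8 the value was -0.03. In CS 8 the miR-124 precursor family had 41658 CPM, against 42283 to 54727 CPM in the other libraries, and held 58.1% of the summed mature and precursor counts of the family, against 20.7% to 37.6% in the others.

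The next in abundance varied much less. miR-9-5p, a regulator of neural progenitors, ranged from 48749 to 61617 CPM in SS and from 48098 to 56930 CPM in CS (log2 fold change -0.32, SE 0.253). miR-26a-5p had 33665, 43284 and 46389 CPM in SS and 40476, 37949 and 33133 CPM in CS (-0.41, SE 0.193). miR-181a-5p had 20843, 22471 and 26402 CPM in SS and 24035, 19515 and 17421 CPM in CS (-0.46, SE 0.212), the smallest unadjusted p of the 10 most abundant at 0.0516 in edgeR. All 10 had a negative fold change under TMM, from -0.13 for let-7b-5p to -0.50, while let-7a-5p, let-7b-5p and miR-138-5p were positive with library totals alone.

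The largest positive fold changes at an unadjusted p under 0.05 were those of miRNAs of epithelia and sensory cells. miR-200c-3p, which holds epithelial identity by acting on Zeb factors, had 19, 7 and 23 counts in SS 12, 13 and 14, and 164, 55 and 476 counts in CS 8, 9 and 10. Every CS library was above every SS library, with CS 10 the highest by far. The log2 fold change was 3.90 (SE 1.29), 2.49 without CS 10, and 1.88 within set A. Its neighbor miR-141-3p had 83, 66 and 84 counts in SS and 95, 195 and 1079 in CS. The log2 fold change was 2.66 (SE 1.07) with all libraries and 0.72 without CS 10.

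miR-183-5p, from a cluster of sensory receptor cells, had 111, 122 and 89 counts in SS and 147, 240 and 1058 in CS. Its log2 fold change of 2.23 (SE 0.911) became 0.63 without CS 10, and 0.42 within set A. miR-182-5p of the same cluster had 10.9, 8.47 and 6.41 CPM in SS and 11.6, 17.0 and 69.7 CPM in CS (1.78, and 0.36 without CS 10). In both, CS 10 carried most of the difference.

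A different library carried the keratinocyte miRNAs. miR-205-5p had 11, 4 and 7 counts in SS and 171, 12 and 7 counts in CS, so that CS 8 alone was high. Its log2 fold change of 2.82 (SE 0.956) was 0.38 without CS 8. miR-203-3p had 45.9, 37.4 and 40.1 CPM in SS and 209.1, 50.1 and 56.2 CPM in CS, and its 0.99 (SE 0.436) was 0.23 without CS 8. The miR-200 and miR-183 families and the pair miR-205-5p and miR-203-3p were thus high in different cocaine libraries.

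A further 3 miRNAs at an unadjusted p under 0.05 had low levels. miR-6958-3p had 46, 42 and 45 counts in SS and 117, 69 and 59 in CS (log2 fold change 0.77, SE 0.31). miR-1839-3p had 22, 30 and 53 counts in SS and 74, 61 and 75 in CS (1.01, SE 0.421, and 1.08 within set A). miR-873a-5p had 3, 4 and 11 counts in SS and 12, 20 and 9 in CS (1.18, SE 0.485). In CPM none of the 3 overlapped between the groups, which held for 12.3% of all miRNAs in that direction. The 3 were picked by their p, which favors such a gap. Leaving out any library kept their log2 fold changes between 0.57 and 1.69.

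Among the lower miRNAs, miR-24-3p was the most abundant with a change over 1. It had 2788 CPM in SS 12, 8469 in SS 13 and 15891 in SS 14, and 3466, 2852 and 4290 CPM in CS 8, 9 and 10. SS 12 fell among the cocaine libraries, and both high values were in set B. The log2 fold change was -1.57 (SE 0.656), -1.01 without SS 14, and -0.17 within set A. miR-193b-3p had 448, 1334 and 1071 counts in SS and 637, 454 and 416 in CS (-0.97, SE 0.345, -0.58 without SS 13, and -0.13 within set A).

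The miR-7 family is found in neurons and neuroendocrine cells. miR-7a-5p had 2814, 3221 and 4876 CPM in SS and 3736, 2725 and 2463 CPM in CS (log2 fold change -0.56, SE 0.233, and -0.16 within set A). miR-7b-5p, with the same seed, gave -0.54 (SE 0.241) and -0.06 within set A. miR-191-5p, an abundant miRNA, had 8187, 8822 and 10776 CPM in SS and 9725, 8483 and 6840 CPM in CS (-0.42, SE 0.172). In all 3 the groups overlapped in CPM, which is not TMM-scaled. Of all miRNAs tested, 7 (0.897%) were lower in CS without overlap in CPM. With TMM scaling 42 (5.38%) were, miR-7a-5p and miR-191-5p among them.

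The low miRNAs that kept their size within set A were few. The predicted novel_mir54 had 42, 33 and 37 counts in SS and 28, 16 and 13 in CS (log2 fold change -1.09, SE 0.341, the smallest unadjusted p in edgeR at 0.00814), and -1.19 within set A. miR-5617-3p had 18, 11 and 14 counts in SS and 8, 7 and 5 in CS (-1.19, SE 0.486, and -1.21 within set A), and its CPM did not overlap. miR-7054-3p had 3, 11 and 15 counts in SS and 5, 2 and 3 in CS, and the predicted novel_mir7 had 0, 11 and 23 counts in SS and none in CS. SS 12 was low in both of these.

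**Figure D4:**
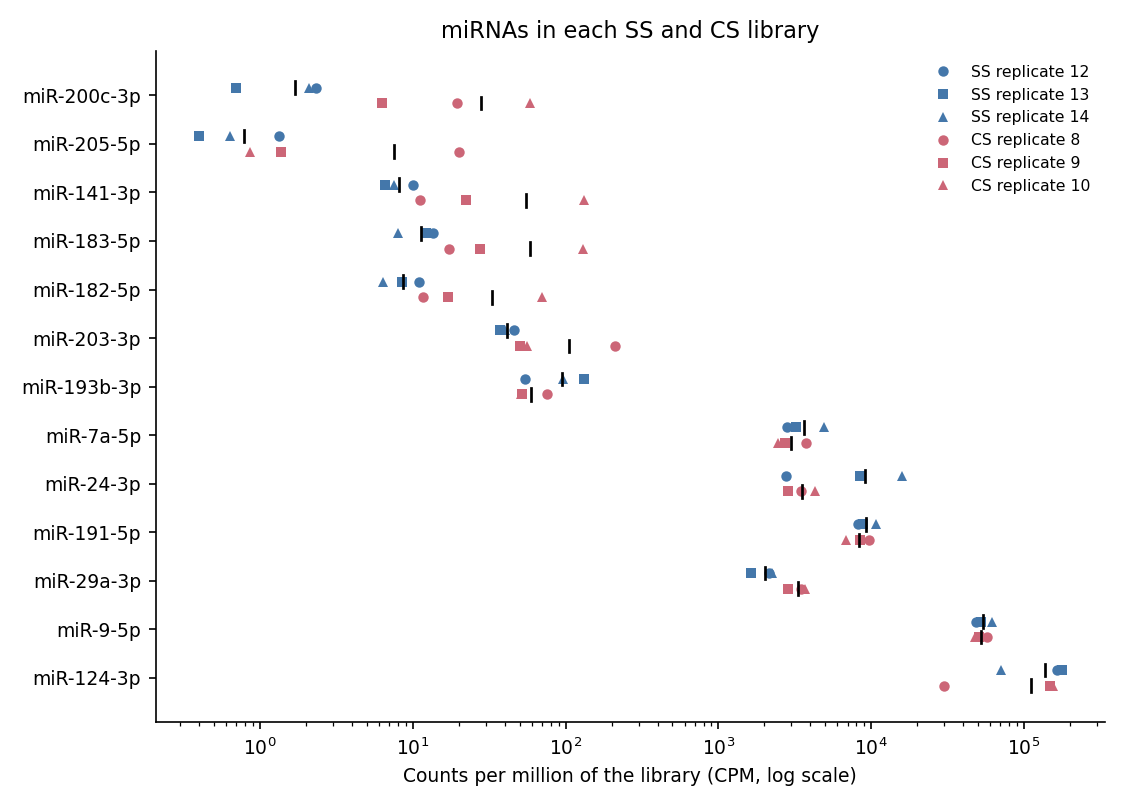
Points show the CPM (log axis) of 13 miRNAs in the 3 SS libraries (blue) and the 3 CS libraries (rose), with black ticks at the group means. CS replicate 10 (triangle) is furthest right for miR-200c-3p, miR-141-3p, miR-183-5p and miR-182-5p, CS replicate 8 (circle) for miR-205-5p and miR-203-3p, and for miR-24-3p the SS replicate 12 lies among the CS points.

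The 3 miRNAs named by the study did not pass the test. miR-224-5p had 91, 7 and 3 counts in SS 12, 13 and 14 and 85, 66 and 3 in CS 8, 9 and 10. It was high in the 3 libraries of set A and near the floor elsewhere, in both treatments (log2 fold change 0.25, SE 1.22). miR-340-3p had 131.7, 141.2 and 194.5 CPM in SS and 228.5, 192.0 and 124.4 CPM in CS (-0.06, SE 0.318). miR-330-5p had 921, 644 and 905 CPM in SS and 2009, 914 and 658 CPM in CS, with CS 8 alone high (0.21, SE 0.307).

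The miRNA families chosen for brain and for cocaine were then taken as lists. They were chosen with earlier results of these data known. In none of these 9 lists was a member called (0.0% of all miRNAs). Outside the Dlk1-Dio3 list, with 1 lower, no member had an unadjusted p under 0.05, against 2.82% of all miRNAs. miR-132 and miR-212, induced by neuronal activity through CREB, were below 0 in 4 of 4 members (median log2 fold change -0.50), but in 2 of 4 with library totals alone. miR-132-3p had 253.7, 283.2 and 1316 CPM in SS and 325.5, 665.5 and 256.8 CPM in CS. SS 14 alone was high, and without it the log2 fold change of -0.76 became 0.29. miR-212-5p had 69.3, 838 and 208 CPM in SS and 244, 208 and 80.8 CPM in CS, and its -1.45 became 0.11 without SS 13.

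The miR-29 family, which targets collagens and DNA methyltransferases, had higher CPM in CS in most members. miR-29a-3p had 2157, 1632 and 2244 CPM in SS and 3477, 2864 and 3669 CPM in CS (log2 fold change 0.49, SE 0.297, and 0.27 without CS 10). miR-29c-3p had 515, 422 and 486 CPM in SS and 872, 793 and 926 CPM in CS (0.62, SE 0.353). Of 7 members, 5 had CPM above all SS libraries in every CS library, against 12.3% of all miRNAs in that direction, and the median was 0.49 against 0.03 for all miRNAs. Neither miRNA passed the test.

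The sum of mature and precursor reads of miR-29, of which precursor reads held 76.9% to 83.8%, gave the same order in CPM. It was 16169, 15205 and 15807 CPM in SS and 22675, 20235 and 21995 CPM in CS. The mean was 15727 ± 486.8 CPM in SS and 21635 ± 1259 CPM in CS, a log2 ratio of 0.46 without TMM. With TMM scaling the precursor family alone gave 0.29 (SE 0.47). In CPM, miR-29 was the 1 of 11 families whose sums did not overlap (exact permutation test, p = 0.1, the smallest possible, adjusted p = 0.825). MS and MC libraries ranged from 7212 to 42612 CPM, far wider than the gap between CS and SS.

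The miR-30 family had 11 of 11 members above 0 under every scaling run. Its median log2 fold change was 0.21 with TMM, against 0.03 for all miRNAs, and 0.47 with library totals, against 0.31. With each library left out in turn, 8 to 11 of the 11 members were above 0, and the median was 0.11 to 0.18. This setting for lists was chosen after the data were seen. miR-30b-5p had 368.6, 353.2 and 490.1 CPM in SS and 638.0, 641.4 and 605.2 CPM in CS (0.40, SE 0.273). The let-7 family, with 17 of 23 members lower and a median of -0.15, turned to 16 of 23 higher with library totals alone. let-7c-5p had 27891, 35810 and 44733 CPM in SS and 34817, 33460 and 32864 CPM in CS (-0.35, SE 0.591). miR-181 had a median of -0.23 under TMM and 0.04 with library totals, and miR-34 with miR-449 0.03 and 0.34.

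The Dlk1-Dio3 cluster is a large imprinted group of neuronal miRNAs that holds miR-134. Of its 93 members tested, 48 were higher and 45 lower, with a median log2 fold change of 0.03, equal to that of all miRNAs. Its summed level was 31699 to 37054 CPM in SS and 32483 to 42293 CPM in CS. The miRNAs miR-297, miR-466, miR-467 and miR-669, which are present in many copies, had a median of -0.12 over 32 members, and 0.17 with library totals, so that their direction was not fixed.

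Marker miRNAs of cell types were used to check the tissue. miR-124-3p, miR-9-5p, miR-128-3p and miR-138-5p, the list of neurons and cortex, held 254678, 269550 and 177137 CPM together in SS and 136411, 242683 and 239703 CPM in CS. They were the largest marker list in all 6 libraries. In bulk tissue, fewer cells of a type and less RNA per cell cannot be told apart. Oligodendrocyte markers (miR-219a and miR-338-3p) summed to 392 to 1470 CPM in SS and 934 to 1733 CPM in CS, and the low value of SS 14 came from miR-219a-2-3p, at 27.7 CPM there against 549 to 724 CPM in the other libraries.

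Endothelial miR-126a summed to 6580 to 7375 CPM in SS and 6878 to 8465 CPM in CS, and overlapped as well. Red blood cell markers, nearly all miR-451a, summed to 1517 to 2232 CPM in SS and 2400 to 2687 CPM in CS. Of the marker lists, only this and the epithelial list had every CS sum above every SS sum in CPM. These sums are not TMM-scaled, and with library totals alone 75.3% of all miRNAs were higher in CS. The TMM-scaled log2 fold change of miR-451a was 0.14. The 5 markers of microglia and leukocytes went both ways, 2 higher and 3 lower in CS (median log2 fold change -0.33, from -0.85 to 0.41). The most abundant of them, miR-150-5p of lymphocytes, had 1721, 789 and 1541 CPM in SS and 371, 507 and 1590 CPM in CS. Its log2 fold change of -0.85 (SE 0.522), the lowest of the 5, was -1.96 without CS 10 and -0.45 without CS 8. miR-155-5p followed the sets, with 29.9 CPM in SS 12, 24.2 in CS 8 and 30.3 in CS 9 against 3.29 to 5.99 CPM in the other 3.

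Markers of other organs were low. Muscle markers summed to 27.1 to 43.0 CPM, liver and gut markers to 137 to 511 CPM, and those of the caudal nervous system to 10.9 to 40.8 CPM, with miR-196b-5p at 0 in SS 13. The 8 markers of olfactory and sensory epithelium, the list that holds the miR-200 and miR-183 families, summed to 151.4, 134.1 and 138.0 CPM in SS 12, 13 and 14 and to 165.2, 273.3 and 1206 CPM in CS 8, 9 and 10. All 8 were above 0 under every scaling, with a median log2 fold change of 1.83 against 0.03 for all miRNAs, 4 of 8 had CPM above SS in every CS library (12.3% of all miRNAs), and 3 of 8 had an unadjusted p under 0.05 (1.15%). Without CS 10, a setting for lists chosen after the data were seen, the median was 0.36, and 6 of 8 were above 0, from -0.40 to 2.49. MS and MC libraries ranged from 71.2 to 914 CPM. The part that tissue next to the PFC had in these values was not tested.

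**Figure D5:**
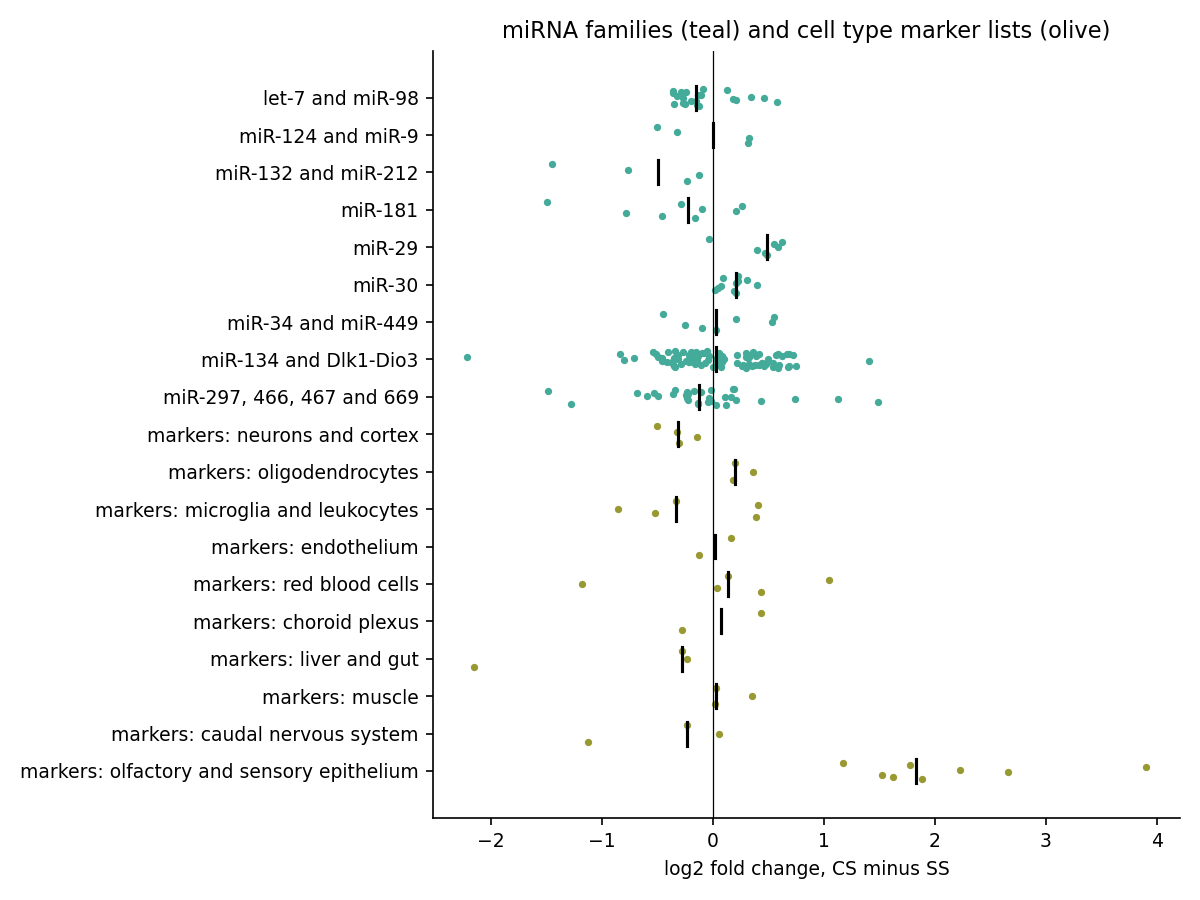
Each point is the TMM-scaled log2 fold change (CS minus SS) of 1 miRNA, in rows for the miRNA families (teal) and the cell type marker lists (olive), with a black line at each median. The row of olfactory and sensory epithelium has its median at 1.83 and no point below 1.17, the miR-29 row has its median at 0.49, and the medians of the other rows lie between -0.50 and 0.21. With library totals in place of TMM the medians of let-7, miR-181, the miR-297 row, liver and gut and the caudal nervous system turn from negative to positive, and that of miR-124 and miR-9 moves from 0 to 0.26. Without CS 10 the epithelial median is 0.36.

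RNA families, as grouped in Rfam, were tested together, 319 of 831 listed in the 6 libraries. They include miRNA precursors, snoRNAs, snRNAs, ribosomal and transfer RNAs and others. None was called (0.0%), and the smallest adjusted p was 0.446 in edgeR. At an unadjusted p under 0.05 there were 28 families, 8.78%, with 14 higher and 14 lower (4.39% each). The CPM of 31 families (9.72%) did not overlap between the groups, 16 higher and 15 lower in CS (5.02% and 4.7%), and with TMM scaling 27 (8.46%) did not, 17 higher and 10 lower (5.33% and 3.13%). DESeq2 called 4, of which 3 (mir-172, MIR397 and MIR398) are named for plant miRNAs and had their counts in CS 10, and the other was the snoRNA family snR60. MIR398 had 13809 counts in CS 10, 41 in SS 12 and at most 3 in the others. MIR397 had 705 counts in CS 10 and none in the other 5.

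The 5 most abundant families were precursors. The miR-124 precursor family had 436595, 463090 and 468377 counts in SS and 352985, 403613 and 447766 in CS, a log2 fold change of -0.03 (SE 0.306). The miR-9 precursors gave -0.25 (SE 0.501), miR-29 precursors 0.29 (SE 0.47), miR-181 precursors -0.55 (SE 0.319) and miR-26 precursors -0.12 (SE 0.382). All are within 2 standard errors of 0.

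The let-7 precursor family differed mainly through 1 saline library. It had 5437 counts in SS 12, 103510 in SS 13 and 13592 in SS 14, and 6009, 5913 and 3171 in CS 8, 9 and 10. The log2 fold change was -3.16 with all libraries and -0.97 without SS 13, and within set A it was 0.15. Mature let-7 gave no such peak, since SS 13 had 118557 CPM summed over let-7 and miR-98, between 99807 in SS 12 and 138923 in SS 14. This family was named after its values were seen.

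Of the snoRNAs lower in CS with the smallest unadjusted p, SS 12 stood with the cocaine libraries. SNORA73 had 31, 208 and 168 counts in SS 12, 13 and 14 and 32, 26 and 20 in CS 8, 9 and 10 (log2 fold change -2.40, SE 0.792), so that SS 12 had the level of the cocaine libraries and the value within set A was -0.09. snR60 had 4, 36 and 122 counts in SS and 3, 3 and 4 in CS (-3.82, SE 1.06, and -0.16 within set A). SNORA55 had 1, 40 and 7 counts in SS and 1, 0 and 0 in CS, and the precursor family mir-668 had 4, 20 and 7 counts in SS and 4, 1 and 1 in CS. In each of these, SS 12 was within 2 counts of at least 1 cocaine library.

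Of the snoRNA families higher in CS, those with the smallest unadjusted p had low counts. SNORD87 had 8, 2 and 6 counts in SS and 27, 11 and 7 in CS (log2 fold change 1.45, SE 0.524, and 0.91 without CS 8). SNORA47 had 0, 1 and 1 counts in SS and 4, 2 and 8 in CS, and snoR14 none in SS and 2, 1 and 18 in CS. Of 126 snoRNA families tested, 85 were above 0 and 41 below, with a median of 0.34 against 0.31 for all families. The most abundant, the brain-specific imprinted SNORD115, had 66.4, 86.8 and 104.3 CPM in SS and 78.7, 52.8 and 70.8 CPM in CS (-0.50). SNORD43 had 59, 89 and 149 counts in SS and 414, 54 and 219 in CS, with CS 8 and CS 10 high and CS 9 low (1.20, SE 0.833, and 1.70 within set A). SNORD115 and SNORD43 were named after their values were seen.

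Y RNA and ribosomal RNA overlapped between the groups. Y RNA, bound by the Ro protein, had 2403, 4181 and 6826 CPM in SS and 3740, 1933 and 2331 CPM in CS (log2 fold change -0.99, and -0.50 without SS 14), with the high saline values in set B. Fragments of the small ribosomal subunit RNA had 5623, 2111 and 5212 counts in SS and 5442, 5264 and 11855 in CS (1.10, and 0.19 without CS 10). Those of the large subunit had 2024, 684 and 708 counts in SS and 1690, 1587 and 1982 in CS, where SS 12 was the highest of all. U6, the snRNA at the core of the spliceosome, had 72.4, 65.1 and 72.6 CPM in SS and 99.1, 75.3 and 106.8 CPM in CS. Every CS library was above every SS library in CPM but not with TMM scaling, and the log2 fold change was 0.33 (SE 0.382), and -0.03 without CS 10. Y RNA, ribosomal RNA and U6 were named after their values were seen.

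Of 281 piRNAs tested, none was called (0.0%), and 3 (1.07%) had an unadjusted p under 0.05 in edgeR, all higher in CS, against 5 in DESeq2. mmu_piR_000958 had 32, 6 and 6 counts in SS and 35, 15 and 247 in CS, and mmu_piR_034793 had 7.17, 7.37 and 16.5 CPM in SS and 104.1, 7.0 and 90.1 CPM in CS. In the first CS 10, and in the second CS 8 and CS 10, were high. mmu_piR_032974 had 20, 5 and 10 counts in SS and 463, 30 and 59 in CS, where every CS library was above every SS library in CPM and CS 8 was highest (log2 fold change 4.10, SE 1.82, 3.47 within set A and 2.04 at the lowest with 1 library left out). The 3 were named after their values were seen.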

How the data were processed

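Small RNA of mouse PFC was sequenced in 12 libraries, of which 6 are compared here. Per the study's methods, the authors dropped reads under 16 nt, assigned reads with AASRA, and took those not matching miRNA, rRNA or tRNA to piRBase with Bowtie at up to 1 mismatch. The submitters' processing notes name mm10 and Bowtie. The deposited count is the raw number of reads of a small RNA. The deposited TPM was computed by the authors as the count over the library total, times 1000000. It matched the counts within 0.005 and was not tested.

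CPM was computed from the counts. The main test was the quasi-likelihood F-test of edgeR (version 4.0.16, R version 4.3.3) over all 12 libraries with a coefficient for each of 4 groups, so that MS and MC add only to the estimate of the spread. TMM factors and dispersions were set within miRNAs, RNA families and piRNAs, and the library size was the total count. Tests took features reaching 5 counts in 3 or more libraries, with Benjamini-Hochberg adjustment within the class. A call needed an adjusted p of 0.05 or less and a log2 fold change of 1 or more either way. The standard error (SE) was derived as the absolute log2 fold change over the square root of the F statistic. Shares, totals and sums were compared by exact permutation tests. Library sets came from average-linkage clustering of precursor families, and within-set values are log2 ratios of TMM-scaled CPM means with a pseudocount of 0.5. The script was tested on simulated data. DESeq2 (version 1.42.0), other scalings and filters, and left-out libraries were alternatives. Within-set values, TMM from abundant miRNAs and fits without plant-named families were added after seeing the data. Among 66 pairs of libraries, chi-square per degree of freedom of miRNA counts was 143.9 or more, so that no library repeated another. Other steps used Python (version 3.11.15), with pandas (version 2.3.3) for tables and matplotlib (version 3.10.9) for plots. Permutation tests used numpy (version 2.4.6), and Wilson intervals and chi-square values used scipy (version 1.17.1).

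Named features are the 10 most abundant miRNAs, the 8 higher and 8 lower with the smallest unadjusted p, 3 miRNAs named by the study, up to 4 members of each list by abundance, and RNA families by p (5 each way) or abundance (5). Members that share these seeds or clusters, and features marked in the text, are additions. The members and lists were chosen with earlier results of these data known. Each library is a pool of animals, and p-values measure the spread between pools.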

Additional observations from a re-analysis of the deposited data

Results flagged for a closer look

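Counts outside the tests of CS against SS drew attention in 3 places. Plant-named precursor families held 51224 counts in MC replicate 16 and 47555 counts in MC replicate 17, libraries used here only for the spread, where the 3 saline libraries held 29 to 726. Predicted siRNAs, a class not tested, had 62 counts in CS replicate 10 and none in the 3 saline libraries, where a count of 0 allows up to 3.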

How the results depend on the processing

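No miRNA was called under any alternative run, which were DESeq2, RLE factors, TMM from all features or from abundant miRNAs, library totals, other filters, 6 libraries alone, no fold limit, mature miRNAs alone, library set as a covariate and each library left out. For RNA families DESeq2 called 4 and no filter called 39, and for piRNAs no filter called 4, against 0 in each case. The difference in precursor share (CS minus SS) was 0.274 percentage points over annotated small RNAs alone, and that of predicted miRNAs was -0.0347 on the log2 scale, each of the opposite sign to the main value. miR-224-5p turned to -0.13 with library set as a covariate and to -0.65 within set A. miR-340-3p turned to 0.22 with library totals, 0.31 with library set as a covariate, 0.07 with TMM from abundant miRNAs and 0.33 within set A. Within set A, miR-132-3p was 0.68, miR-212-5p 1.35, the let-7 precursors 0.15, Y RNA 0.23, SNORD115 0.02, and the small and large subunit ribosomal RNA -0.05 and -0.29. The cause was not tested in any of these.

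With each library left out in turn, log2 fold changes ranged from -0.38 to 3.22 for miR-224-5p, from -0.17 to 0.05 for miR-340-3p, from -0.21 to 0.40 for miR-330-5p, from -1.33 to 0.29 for miR-132-3p, from -1.96 to 0.11 for miR-212-5p and from -0.01 to 2.10 for miR-429-3p. Differences in share ranged from -0.199 to 0.181 points for introns, from -0.0114 to 0.147 for piRNAs, from -0.425 to 0.13 for precursors, from -0.00715 to 0.0170 for predicted miRNAs and from -0.00717 to 0.0364 for tRNA. The number of miRNAs detected ranged from -5.83 to 22.5 and the share of the 10 most abundant from -6.30 to 0.572 points. The repeat share stayed between 1.75 and 2.65 points higher in CS.

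No paired analysis was possible because the CS and SS libraries share no replicate number. With 3 pools a group, exact tests cannot pass 0.05, and a count of 3 was worth 0.271 to 0.367 CPM, so that lower levels are not resolved.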
